A study of Mus musculus with 12 samples.

Results

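The genes described here encode the enzymes and the helper protein that make and clear eicosanoids, the lipid mediators derived from arachidonic acid: Alox12, Alox5, Alox5ap, Ptgs1, Ptgs2, Tbxas1, Pla2g4a, Ltc4s, Hpgds and Hpgd. They were chosen by name, with earlier results of these data known. All 10 were found by symbol among the 35869 genes of the table. All 10 also passed the filter on low counts. Mouse bone marrow haematopoietic stem cells (HSCs) had been separated by surface CD41, the integrin chain encoded by Itga2b, and their RNA sequenced, so that the effect of losing RUNX1 could be compared between CD41-positive (CD41pos) and CD41-negative (CD41neg) stem cells. The 4 groups of 3 libraries were CD41pos KO, CD41pos WT, CD41neg KO and CD41neg WT. KO mice were MxCre1+/-, RUNX1f/f and WT mice were MxCre1-/-, RUNX1f/f, so the controls carried floxed Runx1 too. Every mouse had received poly(I:C) in 4 injections and was sampled 4 weeks after them. This synthetic RNA triggers interferon, which switches on the Mx1 promoter that drives Cre recombinase. Cre was thus not restricted to stem cells, and the controls had met poly(I:C) but not Cre. The labels give no age.

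Eicosanoid synthesis begins when cytosolic phospholipase A2, encoded by Pla2g4a, frees arachidonic acid from membranes. Cyclooxygenases (Ptgs1 and Ptgs2) turn it into the precursor of prostaglandins and thromboxane, while lipoxygenases turn it into hydroxy fatty acids (Alox12) or, with the helper protein FLAP (Alox5ap), into leukotrienes (Alox5). In platelets and megakaryocytes Ptgs1, Tbxas1 and Alox12 are the well-known members, and the leukotriene genes are best known from myeloid cells.

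Promoters are shown for Alox12, Ptgs1, Alox5 and Ltc4s, for which a difference passed the test in at least 1 comparison, and for Ptgs2, whose levels differed widely among the CD41neg WT libraries. RefSeq promoters of GRCm38.p6, from 250 bases before to 50 bases after the annotated start, were matched for 9 of the 10 members, which have 10 promoters between them, and Alox5ap had no entry. Each window was searched on both strands for TGTGGT, the core of the RUNX site, for the GATA letters AGATAA or else TGATAA, for the ETS letters GGAAGT and for part of the cAMP response element, TGACGT. Capitals mark a match, and a match on the opposite strand appears as its reverse complement. The windows, printed 5′ to 3′ on the strand of the gene, are chr11:70255321-70255620 on the minus strand for Alox12, chr2:36230176-36230475 on the plus strand for Ptgs1, chr1:150099781-150100080 on the plus strand for Ptgs2, chr6:116461129-116461428 on the minus strand for Alox5 and chr11:50238483-50238782 on the minus strand for Ltc4s.
Alox12: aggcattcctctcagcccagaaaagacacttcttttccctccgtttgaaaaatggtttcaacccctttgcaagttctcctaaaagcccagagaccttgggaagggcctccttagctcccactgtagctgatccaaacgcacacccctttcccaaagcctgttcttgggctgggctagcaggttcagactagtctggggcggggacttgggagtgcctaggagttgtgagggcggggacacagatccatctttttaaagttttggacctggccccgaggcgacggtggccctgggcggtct
Ptgs1: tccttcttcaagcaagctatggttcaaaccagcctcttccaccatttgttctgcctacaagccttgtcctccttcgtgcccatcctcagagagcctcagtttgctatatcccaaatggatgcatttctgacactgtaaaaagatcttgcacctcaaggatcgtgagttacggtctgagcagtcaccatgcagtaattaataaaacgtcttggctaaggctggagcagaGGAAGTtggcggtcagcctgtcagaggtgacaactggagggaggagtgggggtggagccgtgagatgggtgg
Ptgs2: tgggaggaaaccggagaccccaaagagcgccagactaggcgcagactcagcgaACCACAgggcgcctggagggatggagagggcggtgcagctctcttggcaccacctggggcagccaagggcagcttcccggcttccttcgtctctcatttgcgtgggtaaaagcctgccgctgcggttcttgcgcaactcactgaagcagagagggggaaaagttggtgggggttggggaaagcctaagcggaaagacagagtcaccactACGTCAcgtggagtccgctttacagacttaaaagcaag
Alox5: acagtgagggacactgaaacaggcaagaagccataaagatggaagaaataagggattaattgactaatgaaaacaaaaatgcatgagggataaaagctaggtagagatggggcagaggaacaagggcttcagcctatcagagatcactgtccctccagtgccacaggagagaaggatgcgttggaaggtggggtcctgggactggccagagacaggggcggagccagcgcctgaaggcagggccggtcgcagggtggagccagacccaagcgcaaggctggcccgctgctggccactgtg
Ltc4s: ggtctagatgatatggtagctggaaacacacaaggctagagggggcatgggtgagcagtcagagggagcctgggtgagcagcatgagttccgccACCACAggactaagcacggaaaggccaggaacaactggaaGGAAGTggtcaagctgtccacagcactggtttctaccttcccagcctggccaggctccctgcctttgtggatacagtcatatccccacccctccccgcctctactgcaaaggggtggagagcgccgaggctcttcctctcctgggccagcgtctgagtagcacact
The letters of the RUNX core were found in 3 of the 10 member promoters, in Ptgs2 (197 bases before the start), Ltc4s (156 bases before) and Hpgds (250 bases before), and in 16.8% of all 32851 RefSeq promoters of this length. The ETS letters were found in 4 of the 10, in Ptgs1 22 bases before the start, in Ltc4s 116 bases before, in Hpgds 47 bases before and in 1 of the 2 promoters of Pla2g4a, against 23.8% of all promoters. The GATA letters were found in 1 of the 10, the same promoter of Pla2g4a (18.6% of all), and TGACGT in 1 of the 10, 12 bases after the start of Ptgs2 (7.51% of all). The windows of Alox12 and Alox5 held none of these letters. A match is a string of letters, not a measured binding site.

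The 12 libraries held 44108035 to 58946457 gene counts each, with at least 1 read in 21973 to 27097 genes. The labels do not say whether each library of a group came from a separate animal, so p-values here cover only the variation among libraries, some of which may be technical. The same 3 animal labels occur in both KO groups. Within WT, 4 libraries (CD41pos WT 1 and 4, CD41neg WT 2 and 4) stood apart. Nr4a1, an immediate early gene, was at 18.6 to 27.7 CPM there and at 237 to 396 CPM in the other 8 libraries. Library numbers ran from 1 to 10 in WT and from 13 to 22 in KO, so that order and genotype cannot be told apart. Each KO library had RNA of either Ddx3y, on the Y chromosome (83.4 to 103 CPM in 4 libraries), or Xist, the female-specific RNA (308 to 318 CPM in 2). All 6 WT libraries had Xist (113 to 339 CPM) and 4 of them also had Ddx3y (11.2 to 38.9 CPM), so these 4 held transcripts of both sexes. Sex was thus not balanced between genotypes, and the labels do not state how many animals a WT library holds. The Runx1 gene total was higher in KO (326 ± 55.9 CPM in CD41pos KO, against 149 ± 9.23 CPM in CD41pos WT), but it includes exons left after recombination and cannot check the deletion. Each of 10 stem cell marker genes was detected in every library, with sums of 692 to 2213 CPM. RNA of other blood cells was present as well, for 12 granulocyte and monocyte markers summed to 2004 to 4364 CPM in CD41pos KO, 5396 to 6720 CPM in CD41pos WT, 557 to 1503 CPM in CD41neg KO and 2265 to 3207 CPM in CD41neg WT libraries.

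Compared per transcript length (TPM, a unit scaled to gene length and library size), the helper gene Alox5ap was the most abundant of the 10 in all 4 groups and Pla2g4a came next. Alox5ap averaged 221 ± 18.0 TPM in CD41pos KO, 242 ± 13.2 TPM in CD41pos WT, 161 ± 47.2 TPM in CD41neg KO and 109 ± 24.5 TPM in CD41neg WT (SD, n = 3 libraries each, as throughout). Alox5, Tbxas1, Ptgs1 and Ltc4s followed in this order in every group, with means between 6.57 and 39.97 TPM. Each neighbouring pair from Pla2g4a down to Ltc4s overlapped in CD41pos WT libraries, and each from Alox5 down to Ltc4s in CD41neg KO libraries. Tbxas1 and Ptgs1 overlapped in CD41pos KO libraries. In CD41neg WT libraries Pla2g4a overlapped Alox5, Alox5 overlapped Tbxas1, and Ptgs1 overlapped Ltc4s. The order of all these pairs lies within the spread. The last 4 places were taken by Alox12, Ptgs2, Hpgd and Hpgds, and here the groups differed. Alox12 was 7th in CD41pos KO with 9.87 ± 1.00 TPM, clear of Ptgs2 below and Ltc4s above, but 9th in CD41pos WT with 1.03 ± 0.59 TPM and 10th in CD41neg KO (0.77 ± 0.32 TPM) and CD41neg WT (0.80 ± 0.50 TPM). Ptgs2 was 10th in CD41pos WT with 0.60 ± 0.10 TPM.

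**Figure D1:**
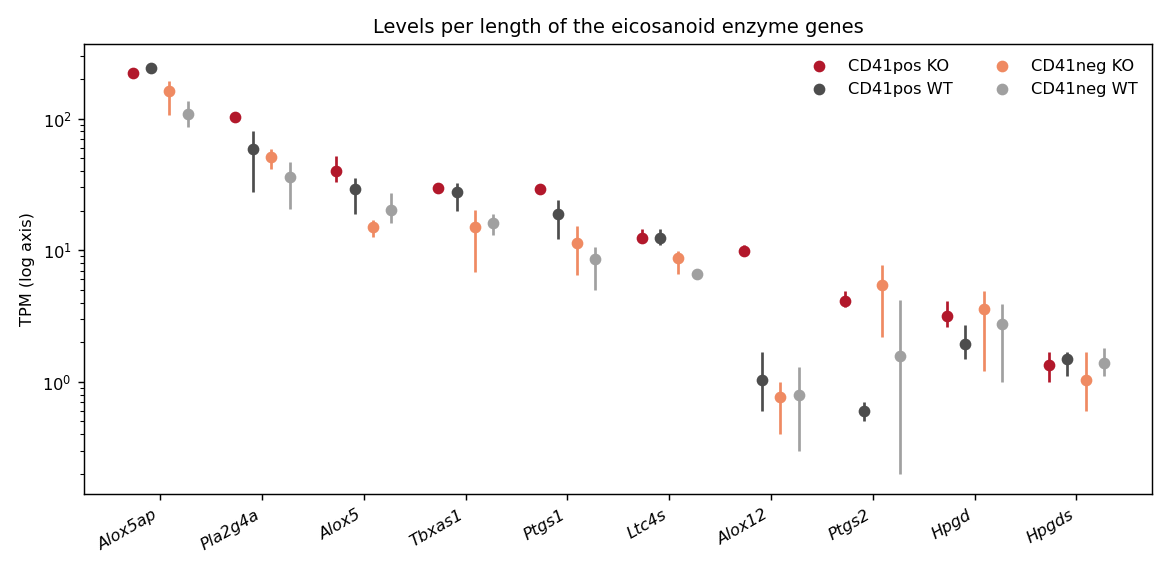
Levels per transcript length of the 10 genes in TPM, on a log axis. Points are means of 3 libraries and lines run over the lowest and highest library, for CD41pos KO, CD41pos WT, CD41neg KO and CD41neg WT from left to right within each gene. Alox5ap is highest in every group, and Alox12 is at 9.1 to 11 TPM in CD41pos KO but at 1.7 TPM or less in every other library.

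In CD41pos HSCs, loss of RUNX1 went with 1 called change among the 10 genes, a rise of Alox12. At an adjusted p below 0.05, 1 of 10 members was higher and none lower, while 17.1% of all 19395 genes tested passed (9.79% higher and 7.27% lower). The KO and WT libraries did not overlap for 4 of the 10, beside 44.3% of all genes. Over only 10 genes, neither this count nor that of called genes sets the members apart from all genes. The median log2 fold change of KO over WT was 0.36 over the members and -0.08 over all genes. In CD41neg HSCs none of the 10 passed edgeR's test, 1 had an unadjusted p below 0.05, and the groups did not overlap for 1. DESeq2 called none there either. Among all genes 7.82% passed in CD41neg HSCs (3.85% higher and 3.97% lower), 5108 had an unadjusted p below 0.05 and 35.5% did not overlap, and the median was 0.23 over the members and -0.03 over all genes. The members are taken below by their place in the pathway, with levels as CPM (reads scaled to library size by TMM) and differences as log2 fold changes ± SE.

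**Figure D2:**
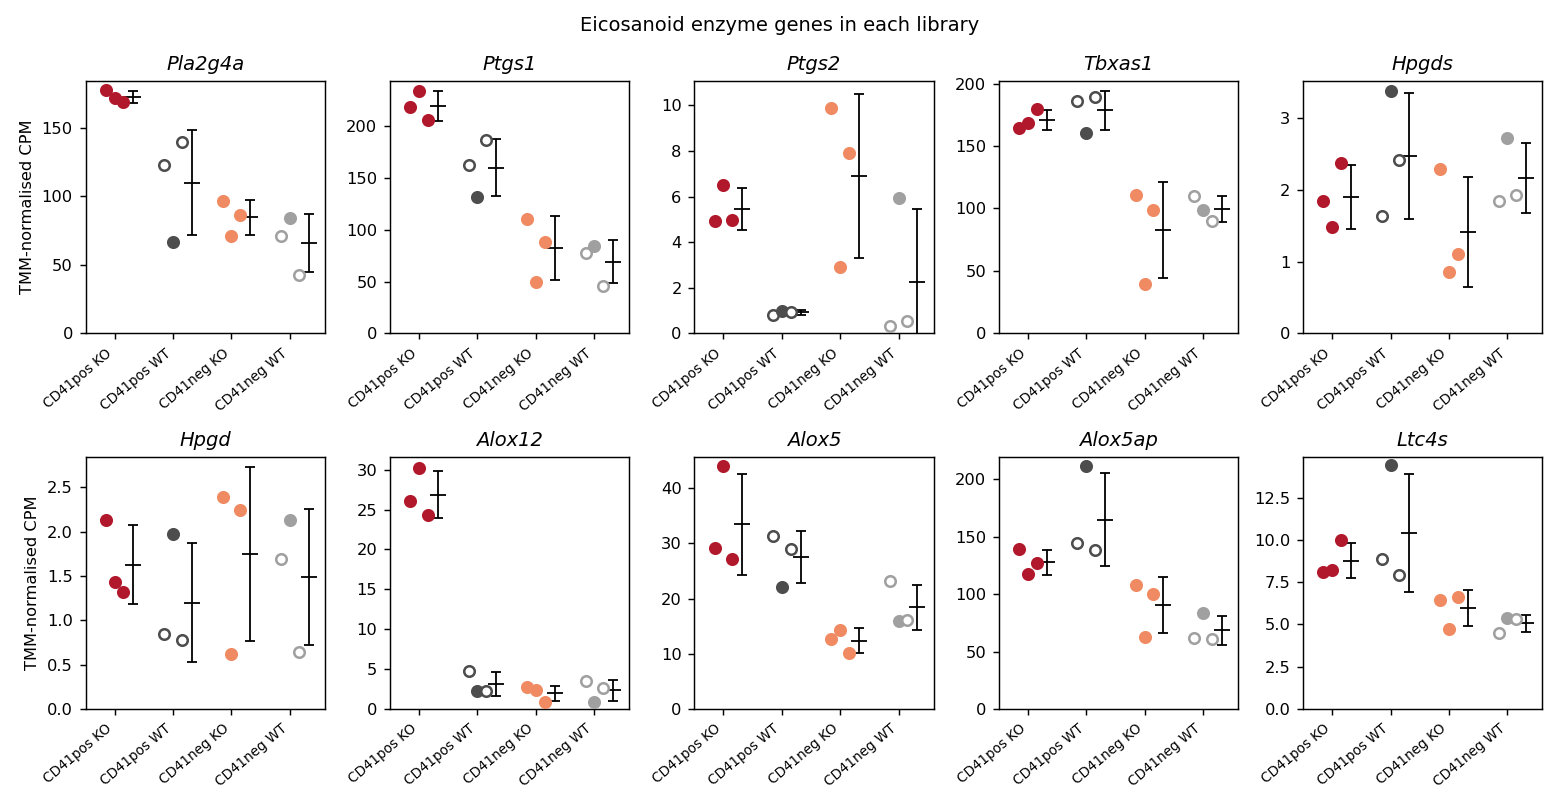
TMM-normalised CPM of each gene in each of the 12 libraries, with a separate linear axis for each gene. Points are libraries, open points the 4 WT libraries that stand apart, and bars are means ± SD of 3 libraries (the lower end of the bar for Ptgs2 in CD41neg WT runs below 0 and is not drawn). All 3 CD41pos KO libraries have over 24 CPM of Alox12, and every other library has less than 5 CPM.

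Pla2g4a, the phospholipase gene at the head of the pathway, was at 177, 172 and 169 CPM in CD41pos KO, against 122, 66.7 and 140 CPM in CD41pos WT libraries 1, 3 and 4. In CD41neg cells it was at 96.2, 71.1 and 86.6 CPM in KO, against 70.7, 84.0 and 42.4 CPM in WT libraries 2, 3 and 4. The CD41pos KO libraries were nearly equal and lay above all others, the CD41pos WT libraries were spread widely with WT 3 lowest, and the CD41neg groups overlapped. The difference between genotypes was 0.65 ± 0.27 in CD41pos HSCs (adjusted p = 0.108) and 0.37 ± 0.27 in CD41neg HSCs (adjusted p = 0.413), and neither passed. With CD41pos WT 3 and CD41neg WT 3 as the only controls, the CD41pos value was 1.47 ± 0.17 (adjusted p = 0.000325), a fit in which 1 library stands for each WT group and is assumed to vary like the KO groups. Between gates Pla2g4a differed by 1.03 ± 0.27 in KO (adjusted p = 0.0693, groups not overlapping) and by 0.74 ± 0.27 in WT (adjusted p = 0.132). The KO value passed in 4 of 8 other analyses, DESeq2 among them (adjusted p = 0.0103).

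Ptgs1 encodes cyclooxygenase-1, the constitutive enzyme that platelets use to make thromboxane. It was at 219, 235 and 206 CPM in CD41pos KO, against 163, 131 and 187 CPM in CD41pos WT libraries 1, 3 and 4. The CD41neg levels were 111, 49.6 and 88.5 CPM in KO, against 77.7, 84.9 and 45.5 CPM in WT libraries 2, 3 and 4. In CPM every CD41pos library was above every CD41neg library, and in CD41pos cells every KO library was above every WT library. The CD41neg groups overlapped. In TPM, CD41pos WT 3 (12.2 TPM) lay below CD41neg KO 1 (15.2 TPM) and CD41neg KO 3 (12.3 TPM). Ptgs1 was higher in CD41pos than in CD41neg HSCs in both genotypes, by 1.41 ± 0.28 in KO (adjusted p = 0.0185) and by 1.21 ± 0.28 in WT (adjusted p = 0.0276). The genotypes differed by 0.45 ± 0.28 in CD41pos cells (adjusted p = 0.254) and 0.26 ± 0.28 in CD41neg cells (adjusted p = 0.583), and neither passed. With the animal label as a replicate block, which pairs the KO libraries, the KO gate difference was 1.48 ± 0.34 and no longer passed (adjusted p = 0.114). Both gate calls were also lost on log2(TPM + 1), at adjusted p-values of 0.0869 in KO and 0.117 in WT, and the WT call, lost in 4 of 8 other analyses, also with only the WT groups in the fit (0.0722). They were each lost in 4 of 12 fits that leave out 1 library: in KO without CD41pos KO 1, 2 or 3 or CD41neg KO 3 (adjusted p = 0.0565 to 0.0806), and in WT without CD41pos WT 1 or 4 or CD41neg WT 2 or 4 (adjusted p = 0.0585 to 0.0905). The WT difference was 0.55 ± 0.43 without the 4 WT libraries that stand apart (adjusted p = 0.420), which leaves WT 3 in each gate.

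Megakaryocyte and platelet markers moved with the gate as Ptgs1 did. Of 12 such markers, 9 were higher in CD41pos than in CD41neg HSCs in KO and 10 in WT, none was lower, and none was at 0 in any library except 1 marker in 1 CD41pos WT library. The list includes Itga2b, the gene of the protein the cells were sorted by, so its own difference is set by the gate. Over the other 11 markers 8 were higher in KO and 9 in WT, a count made after the values were seen. The summed level of all 12 was 2413 to 2868 CPM in CD41pos KO, 1747 to 2007 CPM in CD41pos WT, 677 to 805 CPM in CD41neg KO and 506.2 to 658 CPM in CD41neg WT libraries. Without Itga2b it was 1385 to 1600 CPM in CD41pos KO, 1196 to 1368 CPM in CD41pos WT, 437 to 535 CPM in CD41neg KO and 405 to 536 CPM in CD41neg WT libraries. Granulocyte and monocyte markers also moved, with 3 of 12 higher in CD41pos KO and 4 of 12 higher in CD41pos WT than in the CD41neg group of the genotype. The part of either in the gate differences of the 10 genes was not tested. In RNA from sorted populations such as these, a change in the share of cells with a transcript and a change in RNA per cell cannot be told apart.

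Ptgs2 encodes cyclooxygenase-2, the inducible enzyme. It was at 4.91, 6.52 and 4.97 CPM in CD41pos KO, against 0.816, 0.999 and 0.941 CPM in CD41pos WT libraries 1, 3 and 4. Levels in CD41neg cells were 9.88, 2.91 and 7.92 CPM in KO, against 0.331, 5.95 and 0.538 CPM in WT libraries 2, 3 and 4. All 3 CD41pos KO libraries were above all 3 CD41pos WT libraries, but in CD41neg cells WT 3 lay among the KO libraries while WT 2 and 4 were far below. The lowest library held 17 reads. The differences between genotypes were large but had large errors and did not pass, at 2.57 ± 0.86 in CD41pos (adjusted p = 0.0575) and 1.61 ± 0.82 in CD41neg cells (adjusted p = 0.235). The CD41pos value passed in 4 of 8 other analyses, with DESeq2 (adjusted p = 0.0251), without a filter on low counts (0.0288), with only the 2 CD41pos groups in the fit (0.00797) and without the 4 WT libraries that stand apart (0.0235). A term for those 4 libraries gave 0.80 ± 0.92 (adjusted p = 0.552). In CD41neg cells the difference was 4.00 without CD41neg WT 3 (adjusted p = 0.00378). Between gates Ptgs2 was at -0.34 ± 0.80 in KO (adjusted p = 0.9497) and -1.30 ± 0.84 in WT (adjusted p = 0.402), and the WT value was -2.65 (adjusted p = 0.0450) without the 4 WT libraries that stand apart.

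Levels of the immediate early gene Nr4a1, chosen after its values were seen, are shown beside those of Ptgs2. In the 4 WT libraries that stand apart Ptgs2 was at 0.331 to 0.941 CPM, and in the other 8 it was at 0.999 to 9.88 CPM. CD41pos WT 3 had 345 CPM of Nr4a1, as high as the KO libraries, with 0.999 CPM of Ptgs2, whereas CD41neg WT 3 had 320 CPM of Nr4a1 with 5.95 CPM of Ptgs2. WT 3 was the only WT library high in Nr4a1 in each gate. The part of the difference between these libraries in the level of Ptgs2 was not tested.

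**Figure D3:**
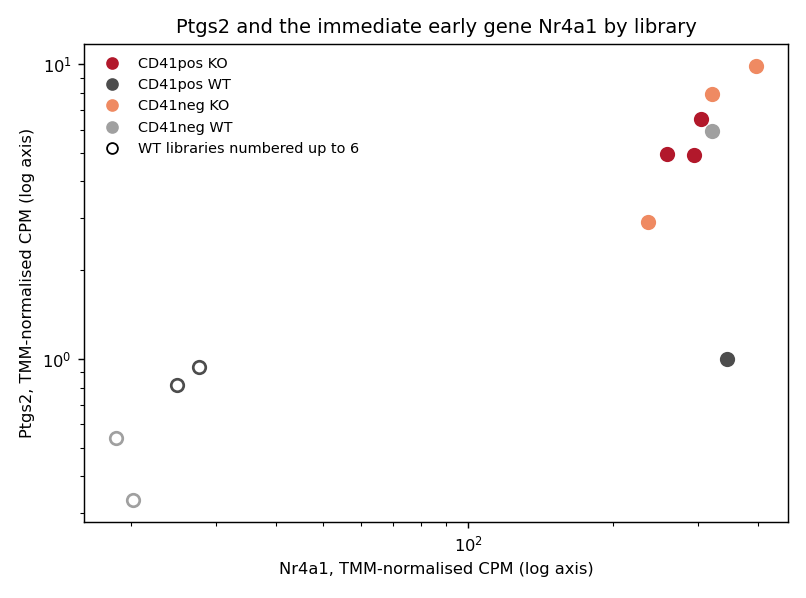
Ptgs2 against the immediate early gene Nr4a1 in each of the 12 libraries, both in TMM-normalised CPM on log axes. Open points are the 4 WT libraries numbered up to 6, with 18.6 to 27.7 CPM of Nr4a1; CD41pos WT 3 has 345 CPM of Nr4a1 and 0.999 CPM of Ptgs2, and all KO libraries have at least 2.91 CPM of Ptgs2.

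Tbxas1, the thromboxane synthase gene, acts on the product of the cyclooxygenases. It was at 164, 169 and 179 CPM in CD41pos KO, against 186, 161 and 189 CPM in CD41pos WT libraries 1, 3 and 4. The CD41neg levels were 111, 39.2 and 98.7 CPM in KO, against 110, 99.1 and 89.7 CPM in WT libraries 2, 3 and 4. CD41pos libraries were above CD41neg ones in both genotypes, the genotypes overlapped in each gate, and CD41neg KO 2 was far below the rest. The gates differed by 1.04 ± 0.28 in KO (adjusted p = 0.0734) and 0.84 ± 0.28 in WT (adjusted p = 0.0976), short of the threshold, while DESeq2 called both (adjusted p = 0.00790 in KO and 0.0442 in WT). Without CD41neg KO 2 the KO difference was 0.70 and passed (adjusted p = 0.0258). The genotypes differed by -0.06 ± 0.28 in CD41pos cells (adjusted p = 0.892) and -0.26 ± 0.28 in CD41neg cells (adjusted p = 0.574). Since the libraries carry no strand, reads of Tbxas1 cannot be told from those of Hipk2, Gm42962, 1700025N23Rik and Gm23010 where these overlap it. Hipk2, a kinase gene on the other strand that overlaps the start of Tbxas1, averaged 144 ± 13.5 CPM in CD41pos KO, 106 ± 14.8 CPM in CD41pos WT, 66.8 ± 2.54 CPM in CD41neg KO and 62.9 ± 10.6 CPM in CD41neg WT, higher in CD41pos cells as Tbxas1 was. Its part in the values of Tbxas1 was not tested. Per length, Ptgs1 stood at 86.6 to 105% of Tbxas1 in CD41pos KO, 61.6 to 74.7% in CD41pos WT, 67.6 to 95.6% in CD41neg KO and 38.5 to 64.4% in CD41neg WT libraries. In each gate the KO libraries lay above the WT libraries in this ratio of TPM, which was not tested.

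Hpgds, which makes prostaglandin D2, and Hpgd, which inactivates prostaglandins, were low in every group. Hpgds ran from 1.49 to 2.37 CPM in CD41pos KO, 1.63 to 3.38 CPM in CD41pos WT, 0.860 to 2.29 CPM in CD41neg KO and 1.85 to 2.72 CPM in CD41neg WT libraries. Hpgd ran from 1.32 to 2.13 CPM in CD41pos KO, 0.773 to 1.98 CPM in CD41pos WT, 0.619 to 2.39 CPM in CD41neg KO and 0.641 to 2.13 CPM in CD41neg WT libraries. All groups overlapped for both genes. The lowest library of each group held 31 to 93 reads, and their differences had SEs of 0.42 to 0.59. Within CD41neg KO, Hpgd ran over 122, 36 and 132 reads. The difference between genotypes in CD41neg cells was -0.61 ± 0.42 for Hpgds (adjusted p = 0.378) and 0.23 ± 0.58 for Hpgd (adjusted p = 0.833). Changes small beside these SEs were not detectable. The part of depth and of spread between libraries in these SEs was not tested.

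Alox12 encodes the platelet-type 12-lipoxygenase. It lies on chromosome 11, 70241457 to 70255353, minus strand (GRCm38), and no other annotated gene overlaps it. It was at 26.1, 30.2 and 24.4 CPM in CD41pos KO, against 4.82, 2.29 and 2.32 CPM in CD41pos WT libraries 1, 3 and 4. In CD41neg cells it was at 2.70, 2.37 and 0.935 CPM in KO, against 3.55, 0.931 and 2.605 CPM in WT libraries 2, 3 and 4. The 3 CD41pos KO libraries stood alone above all 9 others, and the other 3 groups overlapped one another. Alox12 rose in CD41pos KO over CD41pos WT by 3.09 ± 0.51 (8.53-fold, adjusted p = 0.00392), and in CD41pos KO over CD41neg KO by 3.75 ± 0.52 (13.4-fold, adjusted p = 0.00254). It did not pass between genotypes in CD41neg cells (-0.24 ± 0.48, adjusted p = 0.789) or between gates in WT (0.41 ± 0.48, adjusted p = 0.671). Both calls were kept in all 8 other analyses and in all 12 fits that leave out 1 library, with adjusted p-values of at most 0.0214 for the genotype and 0.0224 for the gate. With a term for the 4 WT libraries that stand apart, the genotype difference in CD41pos cells was 3.87 ± 0.55 (adjusted p = 0.00323).

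The test of whether the genotype effect differs between the gates, the interaction, gave 3.33 ± 0.69 for Alox12, with an unadjusted p of 0.000386 and an adjusted p of 0.515. No gene among the 19395 passed this test in edgeR (0%), none of the 10 members among them, and 3 members and 1093 genes had an unadjusted p below 0.05. DESeq2 called 67 genes, Alox12 the only member (3.35 ± 0.66, adjusted p = 0.000727), and over the alternatives run the adjusted p of Alox12 ranged from 0.000727 to 1.00. The other 2 members were Alox5 (0.85 ± 0.34, unadjusted p = 0.0262) and Alox5ap (-0.77 ± 0.31, unadjusted p = 0.0293), with adjusted p-values of 0.854 and 0.861. Per length, Alox12 stood at 21.0 to 27.5% of Alox5 in CD41pos KO libraries. It was at 2.36 to 4.802% in CD41pos WT, 3.17 to 6.33% in CD41neg KO and 1.68 to 5.00% in CD41neg WT libraries, so CD41pos KO did not overlap any other group in this ratio. Of the 12 megakaryocyte and platelet markers, 3 were higher in CD41pos KO than in CD41pos WT (Treml1, Gp5 and Gp1ba), 1 was lower (Pf4) and 8 did not pass, Itga2b among them (0.85 ± 0.28, adjusted p = 0.0547). The median log2 fold change was 0.64 over the 12 and 0.47 over the 11 without Itga2b. Pf4, a platelet chemokine gene, was at 104 ± 9.82 CPM in CD41pos KO and 270 ± 75.4 CPM in CD41pos WT. The part of these markers in the rise of Alox12 was not tested.

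Alox5 encodes 5-lipoxygenase, the first enzyme of leukotriene synthesis. It was at 29.2, 43.99 and 27.2 CPM in CD41pos KO, against 31.3, 22.2 and 29.1 CPM in CD41pos WT libraries 1, 3 and 4. Levels in CD41neg cells were 12.8, 14.4 and 10.1 CPM in KO, against 23.1, 15.9 and 16.2 CPM in WT libraries 2, 3 and 4. The genotypes overlapped in CD41pos cells. In CD41neg cells all KO libraries lay below all WT libraries in CPM. In TPM, however, CD41neg KO 2 (17 TPM) was above CD41neg WT 4 (16 TPM). Alox5 was higher in CD41pos than in CD41neg HSCs in KO by 1.43 ± 0.24 (adjusted p = 0.00742), a call kept in all 8 other analyses and lost in 1 of 12 fits without a library (adjusted p = 0.0515 without CD41neg KO 3). In WT the gate difference was 0.58 ± 0.24 (adjusted p = 0.179). The genotypes differed by 0.28 ± 0.24 in CD41pos (adjusted p = 0.417) and -0.57 ± 0.24 in CD41neg cells (adjusted p = 0.155), and neither passed.

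Alox5ap encodes FLAP, the membrane protein that presents arachidonic acid to 5-lipoxygenase. It was at 139, 117 and 127 CPM in CD41pos KO, against 145, 212 and 138 CPM in CD41pos WT libraries 1, 3 and 4. Levels in CD41neg cells were 108, 62.6 and 100.1 CPM in KO, against 61.8, 83.2 and 60.7 CPM in WT libraries 2, 3 and 4. CD41pos WT 3 was highest, the genotypes overlapped in both gates, and the gates did not overlap in either genotype. The gate difference was 0.50 ± 0.22 in KO (adjusted p = 0.342) and 1.27 ± 0.22 in WT (adjusted p = 0.00839), and the WT call held in 7 of 8 other analyses and in all 12 fits without a library (adjusted p at most 0.0417). The genotype difference was -0.37 ± 0.22 in CD41pos cells (adjusted p = 0.245) and 0.40 ± 0.22 in CD41neg cells (adjusted p = 0.275). In CD41pos cells it passed in 1 of 8 other analyses, with a term for the 4 WT libraries that stand apart (-0.68 ± 0.21, adjusted p = 0.0356). The adjusted p was 0.710 with limma-trend on log2(TPM + 1). In TPM, CD41pos WT 3 was at 257.5, against 236.5 and 233.2 TPM in CD41pos WT 1 and 4.

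Ltc4s, which joins glutathione to the leukotriene precursor to give leukotriene C4, was at 8.12, 8.23 and 9.97 CPM in CD41pos KO, against 8.89, 14.4 and 7.95 CPM in CD41pos WT libraries 1, 3 and 4. The CD41neg levels were 6.47, 4.73 and 6.65 CPM in KO, against 4.50, 5.40 and 5.29 CPM in WT libraries 2, 3 and 4. CD41pos WT 3 was again highest in CPM, but in TPM it equalled CD41pos KO 3 (both 14.4 TPM). The CD41pos libraries were above the CD41neg ones in each genotype. The gate difference was 0.56 ± 0.26 in KO (adjusted p = 0.362) and 1.04 ± 0.26 in WT (adjusted p = 0.0368). The WT call was fragile, since it was lost in 10 of 12 fits that leave out 1 library (adjusted p = 0.0520 to 0.109), remaining only without CD41pos WT 4 or CD41neg KO 2. It was also lost in 3 of 8 other analyses, among them that without a filter on low counts (0.0605) and that with only the WT groups in the fit (0.157). The genotypes differed by -0.25 ± 0.25 in CD41pos (adjusted p = 0.516) and 0.23 ± 0.26 in CD41neg cells (adjusted p = 0.597). Alox5ap is overlapped by the antisense gene Gm19719 and Ltc4s by the antisense gene Gm26542, whose reads cannot be told from theirs. Ptgs1 is likewise overlapped by Gm43621, Hpgd by Gm45540, Hpgds by the pseudogene Gm17147 and Pla2g4a by n-R5s219.

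Between the gates, then, 3 of 10 members were higher in CD41pos KO than in CD41neg KO HSCs (Alox12, Alox5 and Ptgs1), where 2.79% of all genes passed (1.56% higher and 1.23% lower). In WT, 3 of 10 were higher in CD41pos cells (Ptgs1, Alox5ap and Ltc4s), where 5.59% of all genes passed (2.72% higher and 2.87% lower). No member was called lower in CD41pos cells in either genotype, although Ptgs2 passed as lower in WT in 1 of 8 other analyses. The groups did not overlap for 7 of 10 members in KO, beside 29.9% of all genes, and for 4 of 10 in WT, beside 22.8%. The median log2 fold change over the members was 0.79 in KO and 0.66 in WT, against -0.02 in KO and 0.01 in WT over all genes. Ptgs1 was called in both genotypes. Of the members called in only 1 of them, no interaction passed in edgeR, and that of Alox12 passed in DESeq2, as given above.

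**Figure D4:**
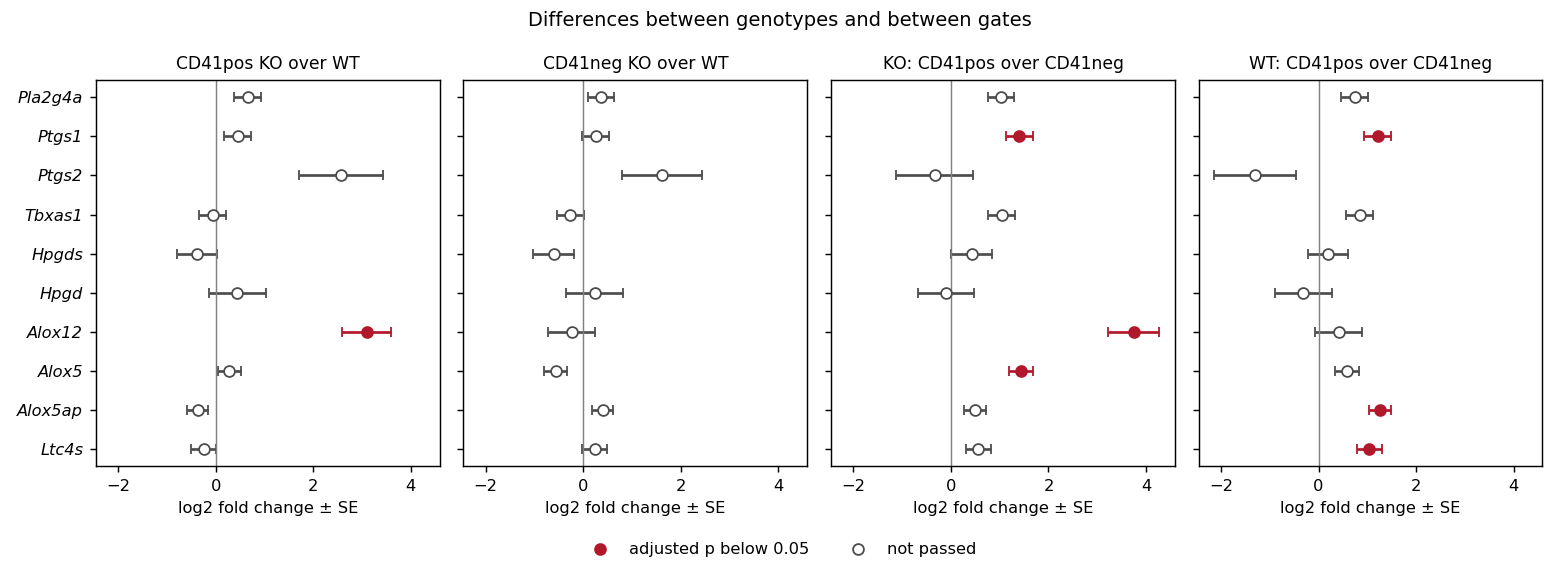
Log2 fold change ± SE of the 10 genes for KO over WT in each gate and for CD41pos over CD41neg in each genotype, from 1 fit of all 12 libraries. Filled red points passed an adjusted p of 0.05 and open points did not. Alox12 has the highest value for KO over WT in CD41pos cells (3.09) and for CD41pos over CD41neg in KO cells (3.75), and no member passed for KO over WT in CD41neg cells.

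The other genes of the pathway were taken from 53 listed genes in 6 roles, of which 48 were tested. This list too was chosen with earlier results of these data known. In CD41pos HSCs 12 of them were lower and 2 higher in KO than in WT, with a median log2 fold change of -0.55. Over all genes 7.27% were lower and 9.79% higher there, with a median of -0.08. In CD41neg HSCs 8 were lower and none higher, with a median of -0.30, beside 3.97% lower, 3.85% higher and a median of -0.03 over all genes, and all 8 were among the 12 that were lower in CD41pos cells. The 8 were Alox15, Alox12e, Cyp4f18, Dpep1, Ptges, Cbr1, Tbxa2r and Ltb4r1. The rise of Alox12 in CD41pos KO thus stood beside lower levels of 2 other lipoxygenase genes, Alox15 and Alox12e. There Alox8 and Aloxe3 did not pass, and neither did Alox5 (0.28 ± 0.24, adjusted p = 0.417).

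Among the 4 other lipoxygenase genes tested, 2 were lower in KO in each gate. Alox15, the 12/15-lipoxygenase gene, was at 0.693, 0.771 and 0.807 CPM in CD41pos KO, against 7.503, 3.36 and 9.19 CPM in CD41pos WT libraries 1, 3 and 4. In CD41neg cells it was at 1.25, 0.912 and 1.34 CPM in KO, against 10.3, 28.2 and 6.78 CPM in WT libraries 2, 3 and 4. Every KO library was below every WT library in both gates. Alox15 fell by 3.14 ± 0.53 in CD41pos (adjusted p = 0.00427) and by 3.69 ± 0.53 in CD41neg cells (adjusted p = 0.00380) on the log2 scale. Alox12e, the epidermal 12-lipoxygenase gene, had 2, 0 and 2 reads in CD41pos KO, against 106, 16 and 91 reads in CD41pos WT libraries 1, 3 and 4. It had 2, 2 and 0 reads in CD41neg KO, against 129, 45 and 100 reads in CD41neg WT libraries 2, 3 and 4. Its fitted values of -5.59 ± 0.97 in CD41pos (adjusted p = 0.00492) and -6.15 ± 0.98 in CD41neg cells (adjusted p = 0.00610) rest on these few KO reads. Without the 4 WT libraries the Alox12e calls were lost in both gates (adjusted p = 0.0725 in CD41pos and 0.0538 in CD41neg cells), and that in CD41pos cells was also lost on log2(TPM + 1) (0.0642).

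Of 8 prostanoid synthase genes, 3 were lower in CD41pos KO and 2 in CD41neg KO. Ptges, which makes prostaglandin E2, averaged 0.453 ± 0.143 CPM in CD41pos KO and 2.89 ± 1.34 CPM in CD41pos WT (-2.67 ± 0.62, adjusted p = 0.0154). It averaged 0.770 ± 0.453 CPM in CD41neg KO and 5.44 ± 2.92 CPM in CD41neg WT (-2.82 ± 0.62, adjusted p = 0.0209). Cbr1, a carbonyl reductase gene, fell by 1.30 ± 0.23 in CD41pos (adjusted p = 0.00541) and by 1.02 ± 0.23 in CD41neg cells (adjusted p = 0.0223). Fam213b, which encodes a prostamide and prostaglandin F synthase, passed in CD41pos cells, at -1.70 ± 0.37 (adjusted p = 0.0115), and was at -1.09 ± 0.36 in CD41neg cells (adjusted p = 0.0833). Among 8 genes of leukotriene synthesis and conversion, Cyp4f18, whose product breaks down leukotriene B4, fell by 3.82 ± 0.62 in CD41pos (adjusted p = 0.00378) and by 2.90 ± 0.59 in CD41neg cells (adjusted p = 0.0150). Dpep1, a dipeptidase gene of leukotriene conversion, fell by 2.84 ± 0.83 in CD41pos (adjusted p = 0.0362) and by 3.63 ± 0.86 in CD41neg cells (adjusted p = 0.0274). Mgst2, which encodes a second enzyme able to make leukotriene C4, was lower in CD41pos KO (-1.13 ± 0.36, adjusted p = 0.0493), a call kept in 1 of 8 other analyses.

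Of 9 release genes and 6 genes of transport and breakdown, 1 each was called, both lower in CD41pos KO. Pla2g12a, a secreted phospholipase gene, was at -0.92 ± 0.23 (adjusted p = 0.0197). Ephx2, the soluble epoxide hydrolase gene, was at -1.05 ± 0.33 (adjusted p = 0.0461), kept in 3 of 8 other analyses. Among 13 receptor genes, Tbxa2r, the thromboxane receptor, was lower in KO in both gates although it was higher in CD41pos cells in both genotypes. It averaged 23.02 ± 3.02 CPM in CD41pos KO, 51.6 ± 6.74 CPM in CD41pos WT, 4.47 ± 2.48 CPM in CD41neg KO and 14.4 ± 0.721 CPM in CD41neg WT. The genotype differences were -1.16 ± 0.32 in CD41pos (adjusted p = 0.0300) and -1.68 ± 0.33 in CD41neg cells (adjusted p = 0.0139), and the gate differences were 2.36 ± 0.34 in KO (adjusted p = 0.00285) and 1.84 ± 0.33 in WT (adjusted p = 0.00875). Ltb4r1, a leukotriene B4 receptor, fell by 1.41 ± 0.37 in CD41pos (adjusted p = 0.0254) and by 1.45 ± 0.38 in CD41neg cells (adjusted p = 0.0395). The 2 genes that passed as higher were receptors of prostaglandins, called in CD41pos cells but with like values in CD41neg cells. Ptger3, a prostaglandin E2 receptor, was at 127 ± 21.3 CPM in CD41pos KO and 78.0 ± 7.99 CPM in CD41pos WT (0.71 ± 0.19, adjusted p = 0.0252), and its difference in CD41neg cells was 0.65 ± 0.19 (adjusted p = 0.0534). Ptgir, the prostacyclin receptor, was at 7.77 ± 2.82 CPM in CD41pos KO and 2.82 ± 0.954 CPM in CD41pos WT (1.46 ± 0.45, adjusted p = 0.0448), with 1.54 ± 0.45 in CD41neg cells (adjusted p = 0.0556). Of the 8 genes lower in both gates, Cbr1 and Cyp4f18 passed in CD41pos cells in all 8 other analyses. In CD41neg cells Alox15, Cyp4f18 and Dpep1 passed in all 8. The other calls among these 8 genes in CD41pos cells were kept in 7 (Alox15), 6 (Alox12e, Dpep1 and Ltb4r1) or 5 (Ptges and Tbxa2r). Those in CD41neg cells were kept in 7 (Alox12e and Tbxa2r), 6 (Ptges) or 4 (Cbr1 and Ltb4r1). Ptger3 and Ptgir kept their calls in CD41pos cells in 6 and 4 of 8.

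With 1 library left out, the calls of Alox15 and Alox12e held in both gates in all 12 fits, and those of Cbr1 and Cyp4f18 in CD41pos cells. In CD41pos cells the calls of Fam213b were lost without CD41pos KO 2 or 3, those of Ptges without CD41pos KO 1 or 3, and those of Pla2g12a without CD41pos KO 2 or 3 or CD41pos WT 3. Ltb4r1 was lost without CD41pos KO 2 or 3 or CD41pos WT 1, Ptger3 also without CD41pos WT 3, and Dpep1 without any CD41pos KO library or CD41pos WT 3. Tbxa2r was lost without any CD41pos KO library or CD41pos WT 1 or 3, and Ptgir without these or CD41neg KO 3 or CD41neg WT 3. Mgst2 kept its call in 2 of the 12 fits and Ephx2 in 1. In CD41neg cells the call of Tbxa2r was lost without CD41neg KO 1 (adjusted p = 0.0505), that of Cyp4f18 without CD41neg KO 2 or 3, and that of Ptges without these or CD41neg WT 2. Cbr1 and Dpep1 were lost without any CD41neg KO library, Cbr1 also without CD41neg WT 4 and Dpep1 without CD41neg WT 3. Ltb4r1 was kept in 6 of the 12. The adjusted p-values of these lost calls ran up to 0.166 in CD41pos and 0.137 in CD41neg cells, and no direction turned.

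**Figure D5:**
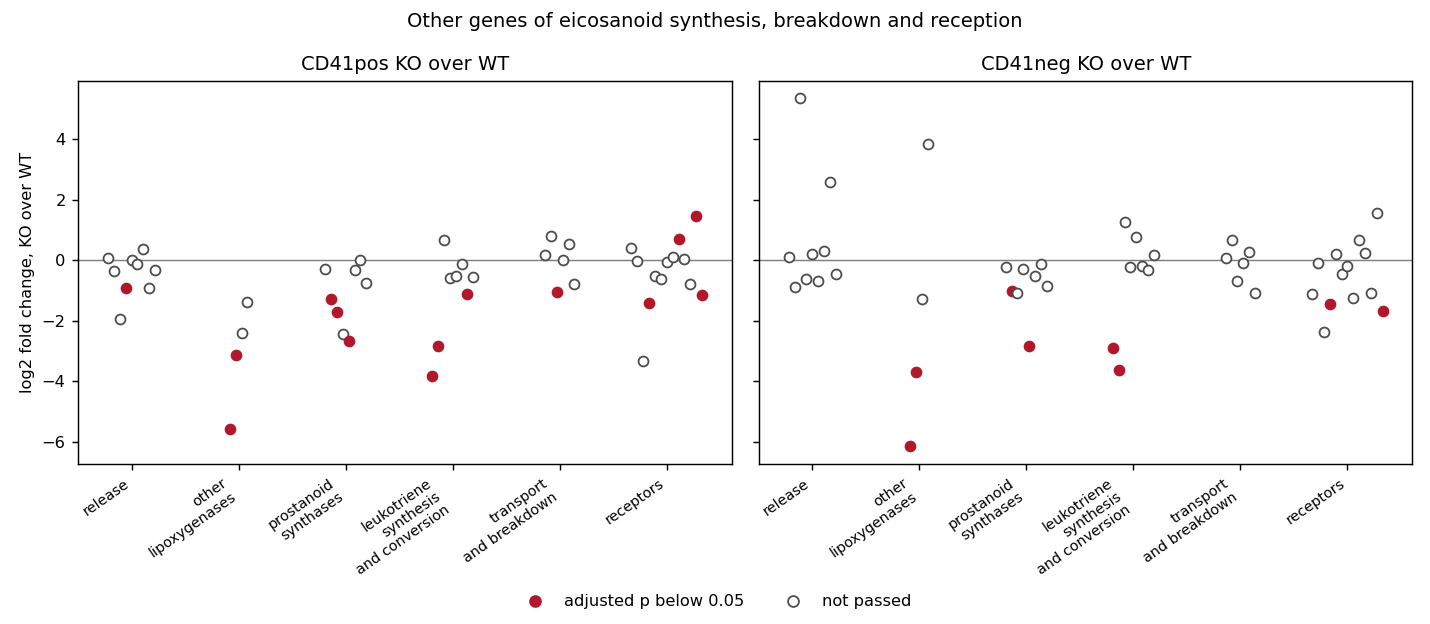
Log2 fold change of KO over WT for the 48 tested genes of the 6 roles, in CD41pos HSCs on the left and CD41neg HSCs on the right. Each point is a gene, filled red where it passed an adjusted p of 0.05 and open where it did not. In CD41pos cells 12 genes are lower and 2 receptor genes higher, and in CD41neg cells 8 genes are lower.

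Some markers of other cells were lower in KO as well. In CD41pos cells, 4 of 12 granulocyte and monocyte markers, 3 of 8 tested basophil and mast cell markers, 5 of 9 endothelial and stromal markers, 2 of 10 lymphoid markers and none of 8 eosinophil markers were lower in KO, beside 7.27% of all genes, and none was higher. In CD41neg cells 4 of 12, 3 of 8, 7 of 9, 1 of 10 and 1 of 8 of the same lists were lower in KO, beside 3.97% of all genes, and again none was higher. None of 7 tested macrophage markers was called in either gate. Every granulocyte and monocyte marker had a lower mean in KO than in WT in both gates. The median log2 fold change of that list was -1.39 in CD41pos and -1.65 in CD41neg cells. The basophil and mast cell, eosinophil, and endothelial and stromal lists did not move as a whole. The 3 basophil and mast cell markers called lower in both gates were Mcpt8, Prss34 and Fcer1a, whereas Cpa3 was at 79.4 to 87.6 CPM in CD41pos KO, against 21.98 to 53.5 CPM in CD41pos WT (1.05, adjusted p = 0.0784). Ms4a2 was at 24.5 to 37.9 CPM in CD41pos KO, against 7.51 to 17.7 CPM in CD41pos WT (1.03, adjusted p = 0.0676), and Hdc and Il4 had positive values too. Mcpt8, a basophil protease gene, was at 0.233 to 0.807 CPM in CD41pos KO, against 64.5 to 131 CPM in CD41pos WT, and at 0.187 to 0.241 CPM in CD41neg KO, against 15.4 to 109 CPM in CD41neg WT libraries. Of the eosinophil markers Siglecf was at 16.1 to 31.7 CPM in CD41pos KO, against 6.99 to 13.9 CPM in CD41pos WT (1.09, adjusted p = 0.0721), and of the endothelial ones Kdr and Pecam1 had positive values in CD41pos cells that did not pass. These genes were picked after their values were seen.

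Basophil and mast cell markers summed to 189 to 232 CPM in CD41pos KO, against 276 to 688 CPM in CD41pos WT, and to 74.6 to 142 CPM in CD41neg KO, against 116 to 538 CPM in CD41neg WT libraries. Eosinophil markers summed to 37.1 to 138 CPM in CD41pos KO, against 177 to 275 CPM in CD41pos WT, and to 71.5 to 80.8 CPM in CD41neg KO, against 51.7 to 672 CPM in CD41neg WT libraries. The mast cell gene Tpsb2 was at 0 in all 6 KO libraries and in the 3 CD41neg WT libraries. Lymphoid markers summed to 126 to 227 CPM in CD41pos KO, against 433 to 857 CPM in CD41pos WT, and endothelial and stromal markers to 98.3 to 119 CPM in CD41pos KO, against 217 to 429.7 CPM in CD41pos WT libraries. The part of these cells in the lower pathway genes was not tested.

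Likeness to Alox12 and Ptgs1 was described by Pearson's r of log2 CPM over the 12 libraries, which share genotype, gate and depth, among 9691 and 9690 genes with a mean of at least 10 CPM. The 5 genes most like Alox12 were Dnajc3 (0.916), Fcgr2b (0.900), Pttg1ip (0.899), Nlrx1 (0.899) and P2ry1 (0.895). P2ry1, an ADP receptor of platelets, had its highest level in CD41pos KO too, with 142 ± 32.3 CPM there, 40.8 ± 6.95 CPM in CD41pos WT, 42.8 ± 16.3 CPM in CD41neg KO and 28.8 ± 0.834 CPM in CD41neg WT. Dnajc3, a co-chaperone gene of the endoplasmic reticulum, was at 225 ± 16.0 CPM in CD41pos KO, 157 ± 5.70 CPM in CD41pos WT, 152 ± 8.33 CPM in CD41neg KO and 139 ± 18.5 CPM in CD41neg WT. Each of these had a smaller span than Alox12, which was 13.4-fold higher in CD41pos KO than in CD41neg KO by the fit, against 3.32-fold for P2ry1 and 1.48-fold for Dnajc3. The 5 genes most like Ptgs1 were Coro2a (0.976), Fyn (0.968), Litaf (0.968), Rab32 (0.965) and Mir6961 (0.963). Rab32, a small GTPase gene, was higher in CD41pos than in CD41neg cells in KO (1.36 ± 0.17, adjusted p = 0.00113) and in WT (0.89 ± 0.16, adjusted p = 0.0103). Mir6961 lies within Bin2 on the same strand, and reads of the pair are not separable.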

How the data were processed

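Gene counts and TPM of 12 libraries were used. Per the labels' protocols, cells were FACS-sorted, the miRNeasy Micro kit gave the RNA and SMART-Seq v4 Ultra Low Input the libraries, which carry no strand. FastQC 0.11.7, cutadapt 1.9.1, STAR 2.6.1e, featureCounts 1.6.2 and the mm10 build are named per the submitters' processing notes, while their settings and the annotation were not stated in what was used here. The authors deposited whole read counts per gene without normalization, which were tested, and a table of TPM values of the same genes, used for levels between genes and as an alternative. For 27 genes the names in the counts had become dates and were taken from the TPM table.

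Of 35869 genes, 19395 passed edgeR's filterByExpr. After TMM scaling, edgeR 4.0.16 (R 4.3.3) fitted 4 group means to the 12 libraries together by quasi-likelihood. The 5 comparisons were of genotype within each gate, of gate within each genotype, and of their interaction. Two-sided p-values were adjusted (Benjamini-Hochberg) across every gene in the fit. The tests were run on simulated data first. The members, the 53 other pathway genes and the marker lists were chosen with earlier results of these data known. Of the pathway genes those with an adjusted p below 0.05 in KO against WT were named, up to 4 a role. For likeness the 5 highest r were named, with predicted genes, pseudogenes, Xist, Tsix and Y-linked genes left out (prior count 2). Coordinates are 1-based, from GENCODE vM21 of GRCm38.

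Alternatives were no low-count filter, DESeq2 size factors, DESeq2 1.42.0, fits of only the groups compared, limma-trend (limma 3.58.1) on log2(TPM + 1), a replicate block, a term for or the removal of the 4 WT libraries numbered up to 6, and leaving out each library. Deviations from group means over 10206 genes correlated between gates for the KO labels (0.47, 0.65 and 0.54), so these pair the KO libraries, whereas the shared WT labels gave 0.14 and -0.52. Replicate libraries differed beyond sampling noise in all 12 pairs.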

Additional observations from a re-analysis of the deposited data

How the results depend on the processing

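Counts of members called moved as follows. For KO against WT in CD41pos HSCs, 1 member was called, but 2 without a low-count filter, with DESeq2, with only the groups compared and with a term for the 4 WT libraries that stand apart, 3 without those 4 libraries, and 1 to 2 with 1 library left out. In CD41neg HSCs it was 0, and 0 to 1 with 1 library left out. Between gates in WT it was 3, but 2 without a filter and on log2(TPM + 1), 4 with DESeq2, 1 with only the groups compared, 0 with the replicate block and 1 to 4 with 1 library left out. Between gates in KO it was 3, but 5 without a filter and with DESeq2, 4 with only the groups compared and without the 4 WT libraries, 2 with the replicate block and on log2(TPM + 1), and 1 to 4 with 1 library left out. For the interaction it was 0, but 1 with DESeq2 and 1 without the 4 WT libraries, and 0 with any 1 library left out.

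With the replicate block, which pairs the KO libraries by animal label, Alox12 (3.86 ± 0.42, adjusted p = 0.0224) and Alox5 (1.41 ± 0.19, adjusted p = 0.0361) stayed past the threshold between KO gates and Ptgs1 did not. In WT, where labels are shared by only 2 pairs that did not deviate together, the block gave Alox5ap 1.27 (adjusted p = 0.0671), Ptgs1 1.33 (adjusted p = 0.206) and Ltc4s 1.00 (adjusted p = 0.205). KO and WT libraries share only a number, and blocked on it Alox12 was at 3.04 (adjusted p = 0.0155) in CD41pos cells.

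Counts over all genes also moved. KO against WT in CD41pos cells called 3309 genes, and 2154 with only the groups compared, 957 with the block, 7469 without the 4 WT libraries and 965 to 4076 with 1 library left out. In CD41neg cells it called 1517, and 2983 with DESeq2, 458 with the block and 341 to 3856 with 1 library left out. Between WT gates 1084 were called, and 2299 with DESeq2, 201 with only the groups compared, 42 with the block, 4672 without the 4 libraries and 442 to 1166 with 1 library left out. Between KO gates 541 were called, and 1241 with DESeq2, 1505 with only the groups compared, 156 with the block, 1464 without the 4 libraries and 196 to 1041 with 1 library left out. For the interaction none was called, and 2 without a filter, 67 with DESeq2, 7 on log2(TPM + 1), 1 with the block and 3368 without the 4 libraries. Of the other pathway genes, 14 were called in CD41pos cells, and 5 on log2(TPM + 1), 7 with the block and 4 to 14 with 1 library left out. In CD41neg cells 8 were called, and 5 on log2(TPM + 1) and 3 to 15 with 1 library left out. The cause of these shifts was not tested.

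Among the member values 19 turned round under the other analyses, where 345 kept their direction and side of the threshold, and 22 did with 1 library left out, where 549 kept theirs. None of the values that turned had passed. In KO against WT in CD41pos cells Tbxas1 turned to 0.14 on log2(TPM + 1), 0.021 with the replicate block, 0.017 with the term for the 4 WT libraries and 0.19 without them. Ltc4s turned to 0.0045 on log2(TPM + 1), and Hpgd to -0.15 with the term and -0.18 without the 4 libraries. In CD41neg cells Alox12 turned to 0.67 with the term and 1.10 without the 4 libraries, Ltc4s to -0.091 with the term, Ptgs1 to -0.038 without the 4, and Hpgd to -0.19 with the block, -0.43 with the term and -0.29 without the 4. Between gates Hpgd turned to 0.072 in WT and 0.067 in KO with the block, and Pla2g4a to -0.41 in WT without the 4. In the interaction Hpgd turned to -0.0045 with the block and Ptgs2 to -0.16 with the term.

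For KO against WT in CD41pos cells the values with 1 library left out ran over Tbxas1 -0.14 to 0.0085 and Ltc4s -0.38 to 0.057. For KO against WT in CD41neg cells the values with 1 library left out ran over Alox12 -0.61 to 0.20, Tbxas1 -0.52 to 0.072 and Hpgd -0.13 to 0.64. Between WT gates the values with 1 library left out ran over Alox12 -0.041 to 0.85, Ptgs2 -1.80 to 1.09, Hpgds -0.093 to 0.42 and Hpgd -0.87 to 0.034. Between KO gates the values with 1 library left out ran over Ptgs2 -0.70 to 0.039 and Hpgd -0.51 to 0.21. In the interaction the values with 1 library left out ran over Ptgs1 -0.067 to 0.48, Ptgs2 -1.40 to 1.497, Tbxas1 -0.14 to 0.48, Hpgds -0.027 to 0.77 and Hpgd -0.19 to 0.77.
Hpgd, Hpgds and Ptgs2 had low counts, and WT without the 4 libraries rests on 1 library a gate, whose spread is assumed.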
